A study of Mus musculus with 12 samples.

Results

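Lactate and glucose reach testis cells through 2 families of carriers, and 9 genes of these families and of their partner proteins were followed in RNA-seq of injected mouse testes. They were taken from a table of 20718 genes by a gene symbol equal to Slc16a1, Slc16a3, Slc16a7, Bsg, Emb, Slc2a1, Slc2a3, Slc2a5 or Slc2a8, and all 9 passed the filter on low counts that left 16296 genes for testing. The study asked what lncRNA5251, a long non-coding RNA, does in spermatogenesis. Testes of male mice (strain IRC mouse in the labels, ICR in the study's methods) were injected with lentivirus at 4 weeks of age. The males were raised to 9 weeks, mated for 4 days and kept for 4 more days before sampling. There were 4 groups of 3 libraries, 12 in all. F0_5251KD received a mix of viruses (LV3 backbone) made separately for 3 short hairpin RNAs against lncRNA5251, and F0_3NC received the negative control of that backbone. In F0_5251OV the virus (LV5 backbone) carried lncRNA5251 in full length, and F0_5NC received the LV5 vector alone. All groups therefore carried a lentivirus, and the share of testis cells that took it up is not known here. Each lncRNA5251 group was set against the control of its own backbone, and F0_3NC vs F0_5NC gave the difference between the controls. The backbone cannot be told apart from any batch that went with it.

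Whether each library was a separate animal is not stated in the labels, so p-values measure the spread between libraries. The totals lay between 15431383 and 16355720 estimated counts per library. Levels are given as FPKM, which divides the counts by transcript length and library total and so allows comparison between genes. No gene of the table is named for lncRNA5251, so the change in the target was not checked here. Marker genes of the germline were abundant, with a summed level of 16530 to 21540 CPM (counts scaled by library total) for 7 genes of elongated spermatids. F0_5NC replicate 1 stood apart in markers of supporting cells. Its 10 Sertoli cell genes summed to 1349 CPM against 686 to 941 in the other 11 libraries. Its elongated spermatid sum was the lowest, at 16530 CPM, close to 16640 in F0_3NC replicate 2. Over all genes it was not the library farthest from its own group. Its chi-square per gene against the others of its group was 13.8 and 10.16. For F0_3NC replicate 2 it was 18.68 and 21.31, and for F0_5251OV replicate 1 it was 14.27 and 17.43.

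In the seminiferous tubule, Sertoli cells take up glucose, break it down by glycolysis and release lactate, which spermatocytes and spermatids take up as fuel. Lactate and pyruvate cross the membrane through the monocarboxylate carriers MCT1 (Slc16a1), MCT2 (Slc16a7) and MCT4 (Slc16a3). These need a chaperone of the immunoglobulin family to reach the surface, mainly basigin (Bsg) for MCT1 and MCT4 and often embigin (Emb) for MCT2. The pairing is not exclusive. Hexoses enter through the facilitative carriers GLUT1 (Slc2a1), GLUT3 (Slc2a3), GLUT5 (Slc2a5, a fructose carrier) and GLUT8 (Slc2a8, mostly held inside the cell).

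The 250 bases before the annotated start of 3 members are shown, Emb because its level differed most between groups, and Slc2a5 and Slc2a1 as a hexose carrier of high and one of low level. They were copied from RefSeq (GRCm38.p6) and are written 5' to 3' on the strand of the gene, which is the plus strand for each. Capitals mark, on either strand, the TATA box letters TATAAA, the GC box letters GGGCGG, the CCAAT box and the core ACGTG of hypoxia-responsive elements. A GC box on the opposite strand reads CCGCCC.
Emb, chr13:117220323-117220572: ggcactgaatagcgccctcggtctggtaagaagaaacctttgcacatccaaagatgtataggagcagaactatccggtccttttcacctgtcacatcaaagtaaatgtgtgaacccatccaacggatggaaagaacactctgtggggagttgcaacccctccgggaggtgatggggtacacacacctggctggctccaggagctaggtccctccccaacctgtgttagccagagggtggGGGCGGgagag
Slc2a5, chr4:150119094-150119343: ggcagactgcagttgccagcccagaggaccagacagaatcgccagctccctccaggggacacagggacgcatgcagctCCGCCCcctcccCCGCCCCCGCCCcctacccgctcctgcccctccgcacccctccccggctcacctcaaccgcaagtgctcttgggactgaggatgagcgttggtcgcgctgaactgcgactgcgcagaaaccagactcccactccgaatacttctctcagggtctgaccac
Slc2a1, chr4:119108495-119108744: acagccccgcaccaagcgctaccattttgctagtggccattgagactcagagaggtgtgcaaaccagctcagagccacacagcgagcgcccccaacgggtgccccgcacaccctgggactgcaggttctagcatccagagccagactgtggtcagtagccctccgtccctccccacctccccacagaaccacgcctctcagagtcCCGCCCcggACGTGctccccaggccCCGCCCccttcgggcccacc
The upstream sequence of Emb held 1 GGGCGG, that of Slc2a5 held 3, and that of Slc2a1 held 2 and 1 ACGTG. Of the 9 members, 6 had an entry in the promoter table, and GGGCGG lay upstream of 5 of these 6, against 32.7% of all 32851 promoters. ACGTG lay upstream of 3 (Slc16a1, Slc16a3 and Slc2a1), against 16.6%, and the match of Slc16a1 was a single CACGTG, which reads the same on both strands and which 6.02% of promoters held. The window of Slc16a3 lies before the start used in the promoter table but inside the annotated span of the gene, downstream of its outermost start. CCAAT lay upstream of Slc2a8 alone (33.8% of promoters) and TATAAA upstream of none of the 6 (12.4%). The GC content was 54.8% for Emb, 66.4% for both Slc2a5 and Slc2a1, 76.4% for Slc16a1, 73.6% for Slc16a3 and 52.8% for Slc2a8, beside a median of 52.4%. The shares of promoters with a motif were not adjusted for GC content. These matches describe letters in a window and are not evidence of binding. Slc2a3, Bsg and Slc16a7 are named only.

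The members formed a high and a low tier. Averaged over the 12 libraries, Slc2a3 had the highest level at 382.5 ± 27.8 FPKM (SD, n = 12), followed by Bsg at 346.6 ± 18.0, Slc2a5 at 275.7 ± 10.2 and Slc16a7 at 228.0 ± 21.4. These ranked 198th, 240th, 332nd and 440th of the 20718 genes. The fifth, Slc2a8, was 11.2-fold below Slc16a7 at 20.4 ± 2.31 FPKM, followed by Slc16a1 at 8.36 ± 1.02, Emb at 6.19 ± 2.57, Slc16a3 at 4.64 ± 0.765 and Slc2a1 at 3.88 ± 0.751. Ranges over the libraries did not overlap between Bsg and Slc2a5, between Slc16a7 and Slc2a8 or between Slc2a8 and Slc16a1. Every other pair of neighbours in this order overlapped. Slc2a3, for example, was above Bsg in 10 of 12 libraries, and Slc16a3 above Slc2a1 in 10 of 12. Each of the 3 roles thus had a member in the high tier, and the carriers most widely used in somatic cells, Slc2a1 and Slc16a1, were in the low one.

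**Figure D1:**
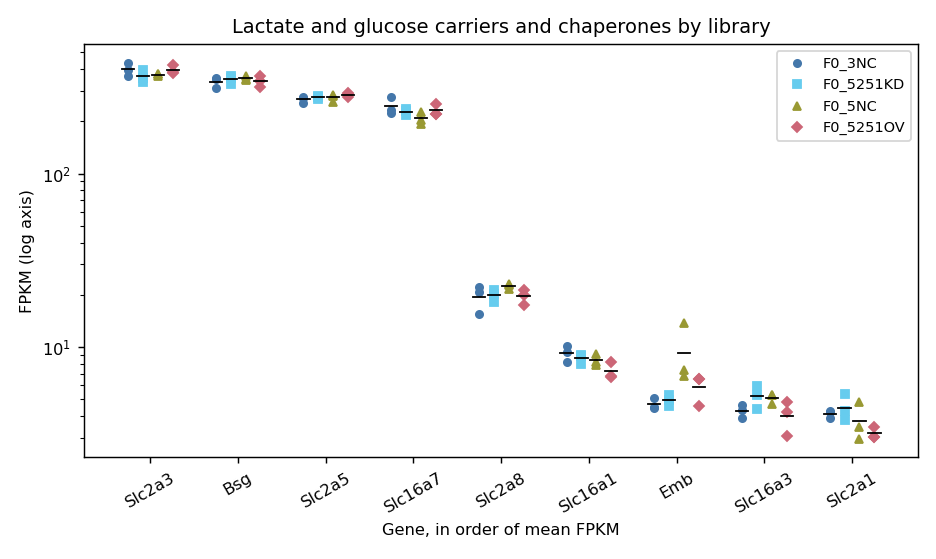
FPKM on a log axis for each of the 9 genes, ordered by mean level, with 1 point per library, 4 colours for the groups and a black bar for the group mean (n = 3). Slc2a3, Bsg, Slc2a5 and Slc16a7 lie between 193.06 and 435.38 FPKM in every library, and the other 5 genes lie between 2.96 and 23.17.

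The spread over libraries differed between genes. Slc2a5 was the steadiest, with a coefficient of variation over the 12 libraries of 3.69%, and Emb the most variable, with 41.6%. Counting error alone gives 0.921% for Slc2a5 and 6.44% for Emb at their depth. Slc2a1 had the fewest reads, with 113 to 202 estimated counts per library, and its variation of 19.4% stood beside a counting error of 8.22%.

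None of the 9 genes passed an adjusted p of 0.05 in either lncRNA5251 comparison by edgeR's quasi-likelihood test with Benjamini-Hochberg adjustment over 16296 genes. For F0_5251KD vs F0_3NC, 0 of 9 passed (0.0245% of all genes passed), 0 had an unadjusted p under 0.05 (4.74% of all genes) and 0 had groups that did not overlap in CPM (11.8%). For F0_5251OV vs F0_5NC, 0 of 9 passed (0.0% of all genes), Emb alone had an unadjusted p under 0.05 (8.76%), and Emb and Slc2a3 had groups that did not overlap (13.9%). DESeq2 and limma also called 0 of 9 in both. The median log2 fold change of the 9 genes was 0.02 in the knockdown and -0.16 in the overexpression, beside 0.00 for all genes in both. Shares so near the background are no result about the 9 genes.

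**Figure D2:**
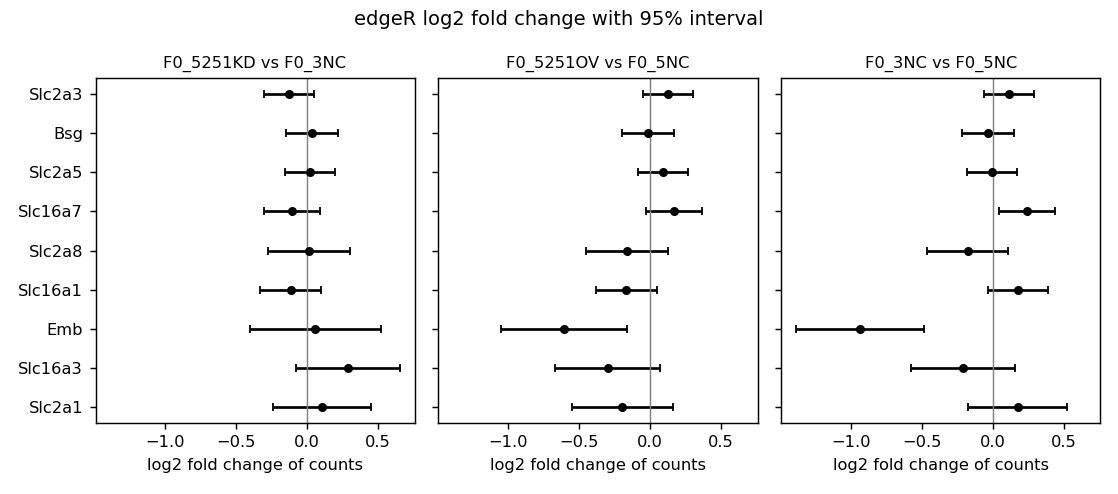
log2 fold change of each gene in the 3 comparisons named above the panels, from edgeR on estimated counts, with the 95% interval as a bar and a grey line at 0. All 9 intervals for F0_5251KD vs F0_3NC include 0, that of Emb excludes 0 in the other 2 comparisons, and that of Slc16a7 excludes 0 for F0_3NC vs F0_5NC.

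Among the lactate carriers, Slc16a7 (chr10:125219270-125389586, GRCm38.p6) encodes MCT2, a high-affinity importer of lactate and pyruvate. Its level was 233.37, 275.93 and 224.18 FPKM in F0_3NC, 218.12, 235.22 and 229.61 in the F0_5251KD libraries, 193.06, 204.76 and 226.20 in F0_5NC, and 253.49, 221.91 and 219.65 in F0_5251OV. The highest library was F0_3NC replicate 2 and the lowest F0_5NC replicate 1, and each lncRNA5251 group overlapped its control. The log2 fold change was -0.10 (SE 0.09, adjusted p = 0.897 by edgeR) in the knockdown and 0.17 (SE 0.09, adjusted p = 0.598) in the overexpression. The 95% intervals of the fold were 0.812 to 1.07 and 0.981 to 1.29.

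Slc16a1 (chr3:104638664-104658462), the widely used carrier MCT1, was measured at 9.37, 10.14 and 8.15 FPKM in F0_3NC and 8.92, 7.95 and 8.93 in F0_5251KD. It was at 9.14, 7.85 and 8.16 FPKM in F0_5NC and at 8.22, 6.76 and 6.67 in F0_5251OV. The 2 lowest libraries of the 12 belonged to F0_5251OV, whose range still overlapped that of F0_5NC. Neither difference passed, at log2 -0.12 (SE 0.10) in the knockdown and -0.17 (SE 0.10) in the overexpression, with edgeR adjusted p = 0.897 and 0.626.

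Slc16a3 (chr11:120948484-120959000) encodes MCT4, a low-affinity exporter of cells that rely on glycolysis. It was at 4.61, 3.88 and 4.31 FPKM in F0_3NC, 5.31, 5.98 and 4.38 in the F0_5251KD libraries, 5.26, 5.25 and 4.68 in F0_5NC and 3.07, 4.20 and 4.79 in F0_5251OV. The knockdown libraries reached the highest level and F0_5251OV replicate 1 the lowest, and both groups overlapped their controls. The log2 fold change was 0.29 (SE 0.17) in the knockdown and -0.30 (SE 0.17) in the overexpression, with edgeR adjusted p = 0.897 and 0.616. The difference between these effects was 0.59 (SE 0.24) with an unadjusted p = 0.0297 and an adjusted p = 0.42 by edgeR. In this test of the difference 0 of 9 genes passed (0.0% of all genes), and 3 (Slc16a3, Emb and Slc2a3) had an unadjusted p under 0.05, beside 11.3% of all genes.

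Slc16a7 made up nearly the whole carrier sum of these 3 genes in FPKM. Its share was 94.8% ± 0.409 (SD, n = 3) in F0_3NC, 94.3% ± 0.345 in F0_5251KD, 93.9% ± 0.789 in F0_5NC and 95.4% ± 0.352 in F0_5251OV. The share was 1.47 percentage points higher in F0_5251OV than in F0_5NC, with no overlap between the groups. The exact two-sided permutation p = 0.1 is the smallest that 3 against 3 libraries allow, and it is 0.36 after Benjamini-Hochberg adjustment over the 27 share comparisons (9 genes in 3 comparisons).

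Of the chaperones, Bsg (chr10:79704358-79711979), a partner of MCT1 and MCT4, was high and steady. It was at 350.15, 311.91 and 355.77 FPKM in F0_3NC, 367.18, 354.14 and 330.29 in the F0_5251KD libraries, 364.46, 348.16 and 352.21 in F0_5NC, and 317.49, 343.37 and 363.80 in F0_5251OV. All groups overlapped one another. Its log2 fold change was 0.04 (SE 0.09, edgeR adjusted p = 0.948) in the knockdown and -0.01 (SE 0.09, adjusted p = 0.973) in the overexpression, with fold intervals of 0.903 to 1.16 and 0.874 to 1.13. Leaving out single libraries turned the sign of each.

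Emb (chr13:117220573-117274415), a partner of MCT2, was the member with the largest difference between groups. It was at 5.09, 4.42 and 4.53 FPKM in F0_3NC, 4.55, 5.25 and 4.96 in the F0_5251KD libraries, 13.67, 7.34 and 6.81 in F0_5NC, and 6.49, 6.57 and 4.54 in F0_5251OV. All F0_5NC libraries were above every other library, and F0_5NC replicate 1 stood above the rest of its own group. In F0_5251OV vs F0_5NC the log2 fold change was -0.60 (SE 0.21), with an unadjusted p = 0.0115 and an adjusted p = 0.536 by edgeR. Without F0_5NC replicate 1 it was -0.27. In F0_5251KD vs F0_3NC the groups overlapped, at log2 0.06 (SE 0.21, edgeR adjusted p = 0.968, fold interval 0.758 to 1.43). The difference between the knockdown and overexpression effects was 0.66 (SE 0.30, edgeR unadjusted p = 0.0432, adjusted p = 0.438).

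The largest log2 difference in Emb was that between the controls of the 2 backbones. F0_3NC was at 4.68 ± 0.359 FPKM (SD, n = 3) and F0_5NC at 9.27 ± 3.82. The log2 fold change of F0_3NC vs F0_5NC was -0.94 (SE 0.21), with an unadjusted p = 0.000565 and an adjusted p = 0.107 by edgeR. DESeq2 called it, at -0.95 with an adjusted p = 0.00511, and this was the only member called by any tool in any comparison of 2 groups. Over the 14 alternatives the adjusted p ran from 0.00511 to 0.33. Without F0_5NC replicate 1 the change was -0.61, with an adjusted p = 0.225 by edgeR and 0.0964 by DESeq2. In the test of any difference among the 4 groups, in which 0 of 9 genes passed by edgeR (0.454% of all genes), Emb had an unadjusted p = 0.00155 and an adjusted p = 0.166, and by DESeq2 an adjusted p = 0.00315. Slc16a1 was the other gene with an unadjusted p under 0.05 in that test (0.0291), beside 7.62% of all genes.

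Markers of other cells also differed between these libraries. The Sertoli list summed to 909 to 1349 CPM in F0_5NC, 686 to 931 in F0_3NC, 847 to 941 in F0_5251KD and 707 to 882 in F0_5251OV. All 10 of its genes had a negative log2 fold change in F0_3NC vs F0_5NC (5 with an unadjusted p under 0.05, none past the adjusted threshold by edgeR), and none was at 0. The epididymis list, of which 4 of 6 genes were in the table and 3 were at 0 in some libraries, summed to 10.3 to 107.5 CPM in F0_5NC, 0.388 to 75.4 in F0_5251OV, 0.515 to 6.47 in F0_3NC and 0.128 to 0.381 in F0_5251KD. Over the 12 libraries Emb had r = 0.72 with the Sertoli sum (permutation p = 0.022, adjusted p = 0.108, rho = 0.524 with permutation p = 0.0839). That r was -0.03 without the 2 libraries farthest from the median of that sum, and 0.487 and 0.838 within the LV3 and LV5 libraries. With the epididymis sum it was r = 0.58 (permutation p = 0.0351, adjusted p = 0.154, rho = 0.622 with permutation p = 0.0342). That r was 0.522 without the 2 farthest libraries, and -0.55 and 0.30 within the LV3 and LV5 libraries. With the round spermatid sum r was -0.634 (permutation p = 0.0459, adjusted p = 0.184, rho = -0.049 with permutation p = 0.887). It was 0.172 without the 2 farthest libraries, and 0.821 and -0.933 within the LV3 and LV5 libraries. The part of these cells in the level of Emb was not tested. In bulk tissue, fewer cells of a type and less RNA per cell cannot be told apart.

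The ratio of the chaperones followed Emb. Emb made up 1.36% ± 0.0928 of the FPKM of both chaperones in F0_3NC, 1.39% ± 0.142 in F0_5251KD, 2.53% ± 0.947 in F0_5NC and 1.70% ± 0.413 in F0_5251OV (SD, n = 3 each). The ratio of Bsg to Emb was 26.7 in F0_5NC replicate 1 and between 47.4 and 80.7 in the other libraries. The share of Emb differed between the controls by 1.16 percentage points, with an exact two-sided permutation p = 0.1, the smallest possible, and 0.36 after adjustment.

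**Figure D3:**
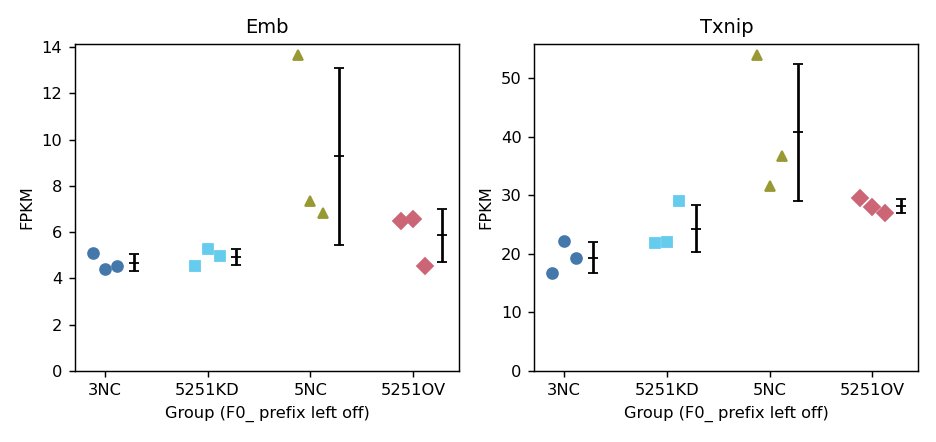
FPKM of Emb and of Txnip by group, 1 point per library, with the group mean and SD (n = 3) as a bar to the right of the points. F0_5NC holds the 3 highest libraries for each gene, and its replicate 1 is the highest at 13.67 FPKM for Emb and 53.98 for Txnip.

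Among the hexose carriers, Slc2a3 (chr6:122727809-122802363) encodes GLUT3, a high-affinity glucose carrier. It was at 365.18, 435.38 and 398.00 FPKM in F0_3NC, 354.92, 337.27 and 397.96 in the F0_5251KD libraries, 374.44, 372.68 and 365.23 in F0_5NC, and 423.12, 384.22 and 381.15 in F0_5251OV. Each F0_5251OV library was above every F0_5NC library, while the knockdown overlapped its control. The log2 fold change was 0.13 (SE 0.08, edgeR adjusted p = 0.646, fold interval 0.966 to 1.23) in the overexpression and -0.13 (SE 0.08, adjusted p = 0.897, fold interval 0.811 to 1.03) in the knockdown. The difference between the effects was -0.25 (SE 0.12), with an unadjusted p = 0.0465 and an adjusted p = 0.441 by edgeR.

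Slc2a5 (chr4:150119344-150144168), the fructose carrier, varied within a narrow band. It was at 275.60, 256.07 and 273.47 FPKM in F0_3NC, 270.28, 279.06 and 275.52 in the F0_5251KD libraries, 259.78, 285.13 and 280.31 in F0_5NC, and 275.80, 286.21 and 290.92 in F0_5251OV. All groups overlapped their controls. The fold interval was 0.900 to 1.15 in the knockdown and 0.943 to 1.20 in the overexpression (edgeR adjusted p = 0.967 and 0.745).

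Slc2a8 (chr2:32972981-32982083) encodes GLUT8. Its level was 22.14, 15.51 and 20.86 FPKM in F0_3NC, 21.44, 18.10 and 20.12 in the F0_5251KD libraries, 22.88, 23.17 and 21.65 in F0_5NC, and 17.41, 19.99 and 21.24 in F0_5251OV. F0_3NC replicate 2 was the lowest, and in FPKM, though not in CPM, the F0_5251OV libraries were all below those of F0_5NC. Its log2 fold change was 0.01 (SE 0.13) in the knockdown and -0.16 (SE 0.13) in the overexpression, with edgeR adjusted p = 0.987 and 0.721.

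Slc2a1 (chr4:119108745-119137330) encodes GLUT1, the basal glucose carrier of many somatic cells. It was at 3.89, 4.24 and 4.25 FPKM in F0_3NC, 5.37, 4.25 and 3.78 in the F0_5251KD libraries, 4.83, 3.46 and 2.96 in F0_5NC, and 3.02, 3.47 and 3.02 in F0_5251OV. The highest library was F0_5251KD replicate 1, and both groups overlapped their controls. On the log2 scale the change was 0.10 (SE 0.16) in the knockdown, whose sign turned without F0_5251KD replicate 1, and -0.19 (SE 0.16) in the overexpression. The edgeR adjusted p was 0.924 and 0.73, and the fold intervals, 0.845 to 1.36 and 0.684 to 1.12, were wider than those of the abundant carriers.

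In the FPKM sum of these 4 carriers, Slc2a3 and Slc2a5 together left little for the others. Slc2a3 took 52.8% to 61.2% over the libraries and Slc2a5 36.0% to 43.7%, while Slc2a8 took 2.18% to 3.46% and Slc2a1 0.420% to 0.824%. Of the 27 comparisons of shares, 6 reached the smallest possible exact permutation p of 0.1, and the smallest adjusted value was 0.36.

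The controls of the 2 backbones were also compared for the other members. In F0_3NC vs F0_5NC 0 of 9 passed by edgeR (0.331% of all genes). Emb and Slc16a7 had an unadjusted p under 0.05 (11.9% of all genes), and the same 2 genes had groups that did not overlap in CPM (17.0%). The log2 CPM of Slc16a7 was between 9.33 and 9.54 in F0_3NC and between 8.99 and 9.30 in F0_5NC, whereas its FPKM ranges touched. Slc16a3 was the reverse, with 3.88 to 4.61 FPKM in F0_3NC below 4.68 to 5.26 in F0_5NC, but with overlap in CPM. The log2 fold change of Slc16a7 was 0.24 (SE 0.09), with an unadjusted p = 0.0195 and an adjusted p = 0.364 by edgeR. Thus Slc16a7 and Emb had opposite signs in this comparison, and neither passed by edgeR. The other 7 genes had log2 fold changes between -0.21 (Slc16a3) and 0.18 (Slc16a1). This comparison shares F0_5NC with the overexpression comparison and F0_3NC with the knockdown comparison, so the values are not independent of those above.

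Marker sums of the cell types were set against the level of each member over the 12 libraries (9 genes and 12 lists, 108 relations, log2 CPM). The permutations shuffled all 12 libraries without regard to group, so differences between groups can enter these p-values. The LV3 and the LV5 libraries each pool a lncRNA5251 group with its control. Of these, 6 had an adjusted permutation p under 0.05 for Pearson's r, and 3 for Spearman's rho. Slc16a7 was lower where the Sertoli sum was higher, with r = -0.942 (permutation p = 0.00014, adjusted p = 0.0103) and rho = -0.776 (permutation p = 0.00434, adjusted p = 0.0754). Without F0_3NC replicate 2 and F0_5NC replicate 1, the libraries farthest out, r was -0.735, and within the LV3 and LV5 libraries it was -0.861 and -0.990. MCT2 messenger was thus lowest in the library with the most Sertoli marker RNA. The Sertoli sum weighs abundant genes most, and Clu, at 293.05 to 666.11 FPKM, was the most abundant gene of that list. In F0_3NC replicate 2, which had the lowest sum, Clu, Amh and Inha were at their lowest. There Wt1 (10.35 FPKM), Cldn11 (44.51) and Trf (8.10) were among their highest, so the genes of the list did not move together. With the spermatocyte sum, Slc16a7 had rho = 0.839 (permutation p = 0.00103, adjusted p = 0.0472) and r = 0.774 (permutation p = 0.00399, adjusted p = 0.0539). That r was 0.575 without F0_3NC replicate 2 and F0_5251OV replicate 1, and 0.979 and 0.738 within the LV3 and LV5 libraries.

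For Slc2a5, 4 lists had an adjusted p under 0.05 for r, and 1 of them, round spermatids, also for rho. With the round spermatid sum it had r = 0.858 (permutation p = 0.00046, adjusted p = 0.0124) and rho = 0.839 (permutation p = 0.00131, adjusted p = 0.0472), with r = 0.605 without the 2 farthest libraries and 0.807 and 0.988 within the LV3 and LV5 libraries. With the elongated spermatid sum r was 0.827 (permutation p = 0.00095, adjusted p = 0.0205, rho = 0.762 with permutation p = 0.00589, adjusted p = 0.0795), and 0.54 without the 2 farthest. Its relation was negative with the macrophage sum (r = -0.867, permutation p = 0.00041, adjusted p = 0.0124, rho = -0.748 with permutation p = 0.00714, adjusted p = 0.0857) and the Leydig cell sum (r = -0.819, permutation p = 0.00191, adjusted p = 0.0344, rho = -0.79 with permutation p = 0.00313, adjusted p = 0.0676). Without the 2 farthest libraries these were -0.571 and -0.596. Within the LV3 and LV5 libraries r was 0.706 and 0.902 for elongated spermatids, -0.763 and -0.963 for macrophages and -0.507 and -0.911 for Leydig cells. The fructose carrier was therefore higher where the spermatid marker sums were higher, and in each of these 4 relations F0_5NC replicate 1 was among the libraries farthest out. Single genes of the spermatid lists did not move together. In F0_3NC replicate 2, where Slc2a5 was lowest, Acr (121.14 FPKM), Tssk1 (219.23), Tnp2 (5621.26) and Odf1 (1115.56) were at their lowest. There Spaca1 (209.17) and Akap4 (971.40) were at their highest.

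Slc2a1 was related to the red blood cell sum, which ran from 37.2 CPM (F0_5251OV replicate 1) to 106.6 CPM (F0_5251KD replicate 1). The correlation was r = 0.88 (permutation p = 0.00019, adjusted p = 0.0103) with rho = 0.853 (permutation p = 0.00076, adjusted p = 0.0472). It was 0.757 without those 2 libraries, and 0.700 and 0.891 within the LV3 and LV5 libraries. Of the 5 red blood cell genes, 3 were at 0 in some libraries. The most abundant, Hba-a1, ran from 43.89 FPKM in F0_5251OV replicate 1 to 171.26 in F0_5251KD replicate 1 and weighs most in the sum. Hbb-bs and Hbb-bt were also highest in F0_5251KD replicate 1, but were lowest, at 0, in F0_5251OV replicate 2. Alas2 ran only from 8.15 to 10.75 FPKM and was highest in F0_5NC replicate 1. The lists share library, depth and tissue makeup with the genes, and the part of blood or of any cell type in these levels was not tested.

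**Figure D4:**
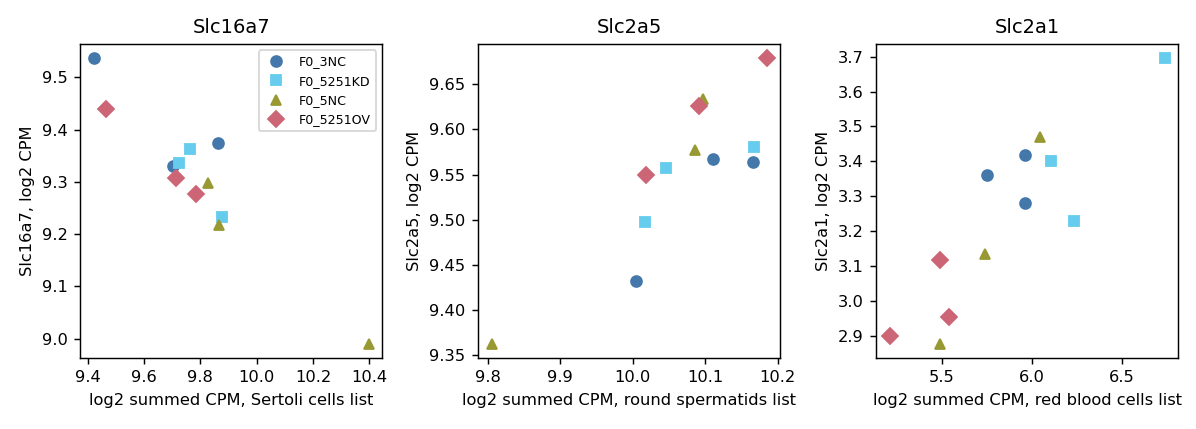
log2 CPM of Slc16a7, Slc2a5 and Slc2a1 against the log2 of the summed CPM of the Sertoli cell, round spermatid and red blood cell marker lists, 1 point per library and 4 colours for the groups. Over the 12 libraries r is -0.942, 0.858 and 0.88 from left to right, and the isolated point at high Sertoli and low round spermatid sums is F0_5NC replicate 1.

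The other genes of the pathway were taken as lists: 13 other monocarboxylate carriers, 11 other hexose carriers, the basigin relative Nptn, 16 enzymes and carriers of lactate and pyruvate, 26 glycolytic enzymes, 3 enzymes of the polyol and fructose route and 8 regulators of hexose carriers. Of these 78 genes, 77 were in the table and 66 were tested. By edgeR, 0 of 66 passed in the knockdown, with 2 at an unadjusted p under 0.05 beside 4.74% of all genes. In the overexpression 0 of 66 passed, with 9 at an unadjusted p under 0.05 beside 8.76%. For the difference between the effects 0 of 66 passed, with 13 beside 11.3%. The gene with the smallest p in the knockdown was Khk, which phosphorylates fructose, at log2 0.74 (SE 0.22, edgeR unadjusted p = 0.00576, adjusted p = 0.897). In the overexpression it was Gipc1, an adaptor that binds the tail of GLUT1, at -0.49 (SE 0.14, edgeR unadjusted p = 0.00334, adjusted p = 0.511). The 24 tested glycolytic enzymes had medians of 0.05 in the knockdown and -0.02 in the overexpression, and the 15 tested lactate and pyruvate genes -0.04 and 0.10.

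Between the controls, 1 of the 66 genes passed (0.331% of all genes), and 10 had an unadjusted p under 0.05, beside 11.9% of all genes. The gene that passed was Txnip, an arrestin that draws GLUT1 and GLUT4 from the cell surface, and it was lower in F0_3NC. Its level was 16.68, 22.10 and 19.28 FPKM in F0_3NC, 21.92, 22.06 and 28.94 in the F0_5251KD libraries, 53.98, 31.53 and 36.78 in F0_5NC, and 29.47, 27.96 and 27.02 in F0_5251OV. The LV5 libraries were higher than the F0_3NC libraries without overlap, with F0_5NC replicate 1 the highest as for Emb. The log2 fold change of F0_3NC vs F0_5NC was -1.03 (SE 0.16, edgeR adjusted p = 0.00864). It was -0.83 without F0_5NC replicate 1 (adjusted p = 0.0245), and the call was lost without F0_3NC replicate 1 (-0.93, adjusted p = 0.0636). In the test of any difference among the 4 groups Txnip (edgeR adjusted p = 0.0275) and Pdk4 (adjusted p = 0.0389) passed. Among the marker genes, Tagln of the peritubular smooth muscle list (edgeR adjusted p = 0.009) and Plin1 of the adipocyte list (adjusted p = 0.0196) passed that test too. Txnip was past the threshold in 8 of the 18 alternatives of that test and not past it in 10, with adjusted p up to 0.128. Pdk4, a kinase that inhibits pyruvate dehydrogenase, was chosen with its values in view. Its FPKM was 1.63, 2.48 and 1.64 FPKM in F0_3NC, 1.70, 1.55 and 1.91 in the F0_5251KD libraries, 1.13, 0.72 and 1.06 in F0_5NC and 0.98, 0.76 and 0.51 in F0_5251OV, so that each LV3 library was above each LV5 library. Of its 18 alternatives, 14 did not keep the call. One marker gene passed between the controls, the lipid droplet gene Plin1 of the adipocyte list, at -1.46 (SE 0.25, edgeR adjusted p = 0.0219). Its level was low, at 0.39 to 1.60 FPKM. The other tested genes of that list had 0.14 (Adipoq), -0.02 (Cidec) and -1.06 (Fabp4) between the controls and did not pass. Plin1 also had 1.40 in the knockdown (edgeR adjusted p = 0.124) and -1.06 in the overexpression (adjusted p = 0.397).

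The genes whose log2 CPM followed each member most closely over the 12 libraries, among 15164 genes whose mean reached 1 CPM, are given as a description. For the lactate carriers they were Lrrc9 (r = 0.986) and Zbbx (0.979) with Slc16a7, Prrc2c (0.93) and Orc1 (0.927) with Slc16a1, and Zfyve26 (0.906) and Lgsn (0.902) with Slc16a3. For the chaperones they were Tex22 (0.957) and Tmem89 (0.955) with Bsg, and Hoxd9 (0.934) and Gpnmb (0.923) with Emb. By rho, Tex22 followed Bsg less closely (0.685) than Tmem89 did (0.951). For the hexose carriers they were Iqcg (0.962) and Fam198b (0.95) with Slc2a3, Lrrc51 (0.984) and Gstm5 (0.98) with Slc2a5, Esrra (0.945) and Ptp4a3 (0.942) with Slc2a8, and Csrp1 (0.903) and Zbtb7b (0.887) with Slc2a1. No member was among the nearest genes of another. The abundant members had nearer neighbours than Slc16a1, Slc16a3, Emb and Slc2a1, whose best r stayed at or below 0.934.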

How the data were processed

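RNA of 12 mouse testis libraries (4 groups of 3, grouped by GEO's labels) had been enriched for poly(A), and reads had been aligned to reference genes with SOAPaligner 2.20 (build mm10 per the labels). Neither the program behind the values nor the strand setting is given in the sources used here. Deposited by the authors were estimated counts (12.0% not whole) and FPKM values per gene and library; 18 columns of other samples were not used. Counts were rounded and tested in edgeR 4.0.16 (R 4.3.3) by the two-sided quasi-likelihood F test after TMM scaling and filterByExpr, fitting the 4 groups together, with Benjamini-Hochberg adjustment over 16296 genes and a threshold of 0.05. SE is the log2 fold change over the square root of F. The alternatives were DESeq2 1.42.0, RLE scaling, no filter, limma 3.58.1 on log2(FPKM + 1) and log2(FPKM + 0.1), the replicate block, the compared groups alone and leaving out each library. Libraries of a group differed beyond sampling noise (chi-square per gene at least 3.86). Shares and correlations used exact or 100000-draw permutation tests (scipy 1.17.1). Those of the correlations shuffled all 12 libraries without regard to group. Named genes were all 9 members, pathway and marker genes past the threshold in the first 3 comparisons or else the pathway gene with the smallest p, and the 2 nearest genes of each member. Pdk4 and further single genes of the marker lists were named with their values in view. Tests were checked on simulated counts. The members and lists were chosen with earlier results of these data known. Coordinates and promoters are from RefSeq (GRCm38.p6), matched by gene ID and symbol.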

Additional observations from a re-analysis of the deposited data

How the results depend on the processing

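The count of members past the threshold stayed at 0 of 9 in all 5 tests under every alternative except DESeq2, which called Emb, 1 gene between the controls and 1 in the test of any difference. Among all genes, DESeq2 called 20 in the knockdown, 30 in the overexpression, 138 between the controls, 35 for the difference of effects and 210 for any difference, against 4, 0, 54, 0 and 74 by edgeR; between the controls DESeq2 called 103 without F0_5NC replicate 1, an alternative chosen after seeing the data. In the knockdown limma called 2 genes on log2(FPKM + 1) and 0 on log2(FPKM + 0.1). For the difference of effects limma called 1 on log2(FPKM + 1), and in the overexpression no filter and the compared groups alone gave 3 each. Leaving out 1 library gave 0 to 4 calls in the knockdown, 0 to 1 in the overexpression, 30 to 54 between the controls, 0 to 1 for the difference of effects and 57 to 92 for any difference. The cause of these shifts was not tested. Same-numbered libraries did not deviate together (r from -0.173 to 0.065, and at most 2 of 6 libraries correlated best with their own number). No pairing by number was thus seen, but 3 libraries per group are too few to exclude one. The replicate block gave 2 calls in the knockdown and 0 among the members.

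The direction of 17 fits of members turned, each time on leaving out 1 library and for changes that had not passed, as it did for Pdk4. In the knockdown the leave-one-out range of the log2 fold change was -0.033 to 0.082 for Bsg, -0.04 to 0.201 for Slc2a1, -0.02 to 0.046 for Slc2a5, -0.137 to 0.114 for Slc2a8 and -0.271 to 0.049 for Pdk4. For Bsg it was -0.078 to 0.055 in the overexpression and -0.082 to 0.036 between the controls, where Slc2a5 ran from -0.087 to 0.048. For the difference of effects it was -0.02 to 0.144 for Slc16a1, -0.028 to 0.115 for Bsg, -0.121 to 0.021 for Slc2a5 and -0.049 to 0.388 for Pdk4. Of the other fits of members under alternatives, 504 kept their direction and side of the threshold, and 1, Emb by DESeq2, passed it. For Txnip between the controls the leave-one-out adjusted p ran from 0.00572 to 0.0636. Depth limits Slc2a1, Slc16a3 and Emb most, where counting error alone was 8.22%, 7.73% and 6.44%.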

Other observations

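The levels of the 9 genes were set against each other over the 12 libraries (36 pairs, log2 CPM), and no pair had an adjusted permutation p under 0.05. The nearest was Slc16a3 with Slc2a3, the exporter MCT4 and the glucose carrier GLUT3, at r = -0.746 (permutation p = 0.00259, adjusted p = 0.0797) and rho = -0.79 (permutation p = 0.00306, adjusted p = 0.0551). It was -0.666 without the 2 farthest libraries, and -0.948 and -0.603 within the LV3 and LV5 libraries. Bsg and Slc2a8 had r = 0.779 (permutation p = 0.00443, adjusted p = 0.0797, rho = 0.545 with permutation p = 0.0693), which was 0.25 without F0_3NC replicate 2 and F0_5251OV replicate 1 and so rests on those libraries. Slc16a7 and Emb had r = -0.742 (permutation p = 0.0117, adjusted p = 0.105, rho = -0.51 with permutation p = 0.0946), and -0.119 without F0_3NC replicate 2 and F0_5NC replicate 1.

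Within a family the ratio of FPKM levels varied by library. Slc16a7 over Slc16a1 was 32.2 ± 1.18 (SD, n = 3) in F0_5251OV and 25.0 ± 3.44 in F0_5NC, with 30.8 as the lowest of F0_5251OV and 27.7 as the highest of F0_5NC. Slc2a3 over Slc2a1 was lowest at 66.1 in F0_5251KD replicate 1 and highest at 140.1 in F0_5251OV replicate 1, the libraries with the highest and lowest red blood cell sums. These ratios were chosen with the values in view and were not tested.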
